A study of Homo sapiens with 6 samples.

Results

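Mitochondria carry their own ribosome, the mitoribosome, which translates the few messages of the mitochondrial genome into core subunits of the respiratory chain. All of its proteins are encoded in the nucleus, made on cytosolic ribosomes and imported, and most carry the symbols MRPL (large subunit, which joins the amino acids) or MRPS (small subunit, which reads the message). Some are homologues of bacterial ribosomal proteins and others are found only in mitochondria. The genes described here are the protein-coding genes whose symbol is MRPL or MRPS with a number and an optional letter. There were 78 such genes among the 60483 gene IDs counted, 49 MRPL and 29 MRPS, and 77 had enough reads to be tested.

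The counts come from RNA-seq of cultured 253J cells, an established line from a human bladder cancer, at passage 16-19. In 3 libraries (siFTO 4, 5 and 6) the cells had received siRNA against FTO, an RNA demethylase that removes N6-methyladenosine, and in 3 libraries (control 1, 2 and 3) control siRNA. The labels give siRNA, whereas the study's methods describe short hairpin RNAs for FTO, and the labels do not say whether the libraries of a group were separate cultures, so p-values measure the spread between these libraries, which may be technical. The cells are 1 line throughout. The libraries held 13162731 to 15709975 counts for siFTO and 10991789 to 19891269 for control. Levels are given as CPM, read counts scaled to library size with TMM factors (trimmed mean of M-values), unless stated otherwise, and log2 fold changes are siFTO over control.

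FTO itself stood at 20.2, 20.7 and 15.7 CPM in siFTO libraries 4, 5 and 6, against 31.8, 21.4 and 31.2 CPM in controls 1, 2 and 3. The groups did not overlap, but control 2 was close to the siFTO libraries. FTO fell by 0.57 on the log2 scale (SE 0.16; adjusted p = 0.0209, edgeR quasi-likelihood test). Without control 1 the adjusted p was 0.107, and without control 3 it was 0.113.

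Libraries siFTO 4 and 5 stood apart from the other 4. In CPM of the library totals, without TMM, 15 fibroblast marker genes summed to 1968 and 2386 in siFTO 4 and 5 and to 48.5 in siFTO 6, against 27.9 to 31.3 in controls. Vimentin (VIM) alone reached 663 and 748 in siFTO 4 and 5 and stayed at 1.001 or below elsewhere, while POSTN was at 0 in all 6 libraries and THY1, PDGFRA and COL3A1 at 0.148 or below. Of 9 leukocyte markers the sum was 85.8 and 108 in siFTO 4 and 5 and 6.76 in siFTO 6, against 3.77 to 5.09 in controls, with PTPRC at 0.0738 or below and CD3E at 0. In siFTO 4 and 5 most of that sum came from CD74 and HLA-DRA, and in the other 4 libraries from CD14. The 6 epithelial markers summed to 8478 to 10718 in siFTO libraries, against 8745 to 10608 in controls. KRT8 gave the largest part of that sum, at 4931 to 6359 over all libraries, while KRT7 was at 1.79 or below. The 10 urothelial genes summed to 91.3 to 114 in siFTO libraries, against 73.5 to 94.3 in controls. Of these, UPK1B was at 0 everywhere, the other uroplakins at 2.47 or below, and GATA3 and KRT5 at 0.886 or below. PPARG stood at 55.1 to 73.3 and KRT13 at 7.59 to 12.8 over all 6 libraries. KRT20 stood at 20.7 to 28.8 in siFTO libraries, against 3.77 to 4.46 in controls. What these markers contribute to the values below was not tested, and fewer cells of a type and less RNA per cell cannot be told apart in bulk RNA.

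The mitoribosomal protein genes were lower on balance in siFTO cells. Of the 77 tested, 34 fell and 0 rose at an adjusted p under 0.05 (edgeR), and 43 did not pass. That is 44.2% of the members lower, against 17.9% of all 14965 genes tested. For rises the share was 0 among the members, against 19.5% of all genes. The median log2 fold change of the members was -0.25, with quartiles at -0.42 and -0.10, and that of all genes tested was 0.01. A positive value was found for 8 members, 3 of them at an unadjusted p under 0.05, and DESeq2 and limma voom also called 0 rises. When libraries were scaled by their totals alone, the median over all genes was 0.13 with 11.9% of genes lower and 27.3% higher, and relative to it the members were again low, with a median of -0.13, 22 falls and 5 rises (MRPL18, MRPL36, MRPL50, MRPS6 and MRPS11). Together the 78 genes took 0.600% to 0.630% of all counts in siFTO libraries and 0.655% to 0.709% in controls.

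The shift was present in each siFTO library. Measured against the mean of the 3 controls on the log2(CPM + 0.5) scale, the median member stood at -0.30, -0.27 and -0.21 in siFTO 4, 5 and 6, against -0.08, 0.10 and -0.03 in controls 1, 2 and 3. Library siFTO 6, with few counts for the fibroblast and leukocyte markers, thus lay below all 3 controls, as did siFTO 4 and 5. Control 2 was the highest library: 19 of 77 members were below the control mean there, against 60 and 50 in controls 1 and 3. In the siFTO libraries 65, 70 and 63 members were below it. Every siFTO library was below every control for 47 members (61.0%), against 25.6% of all genes tested, and above every control for 3 members, against 25.8% of all genes.

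**Figure D1:**
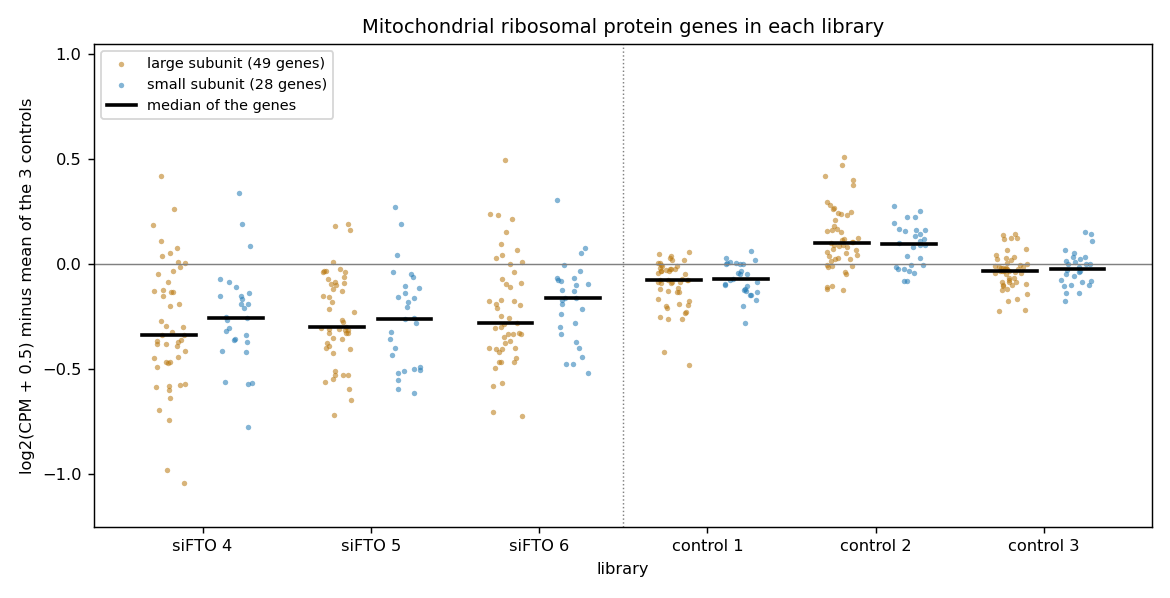
Each point is a mitoribosomal protein gene in a library; the vertical axis is log2(CPM + 0.5) minus the mean of the 3 controls, and black bars are medians over the 49 large-subunit and 28 small-subunit genes. The siFTO medians lie between -0.34 and -0.16, below those of all controls, and control 2 lies highest of the controls.

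With siFTO 4 and 5 left out, 1 siFTO library was set against 3 controls and its spread assumed equal to that of the controls. The median was then -0.21, and 3 members were lower (3.90%, against 5.89% of 15713 genes tested), namely MRPL1, MRPL23 and MRPS18B, with 0 higher (against 6.17% of all genes). That share of calls is not above the background.

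The largest falls were in MRPL23, MRPL12, MRPL54, MRPL1, MRPS18B and MRPS26. MRPL23, the homologue of a bacterial protein at the mouth of the tunnel through which the new chain leaves the ribosome, measured 32.8, 39.4 and 39.3 CPM in siFTO 4, 5 and 6, against 56.4, 87.3 and 56.0 CPM in controls 1, 2 and 3. All siFTO libraries were below all controls, and control 2 was far above the other 2 controls. Its log2 fold change was -0.84 (SE 0.17; adjusted p = 0.00432).

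MRPL12, the homologue of the bacterial stalk protein L7/L12 that recruits translation factors, had 13.3, 19.2 and 18.7 CPM in siFTO libraries, against 19.9, 40.1 and 27.3 CPM in controls. The highest siFTO library nearly reached the lowest control. It fell by 0.77 (SE 0.23; adjusted p = 0.0234), a call that was lost without control 2 (adjusted p = 0.134), without control 3 (0.0933) and without siFTO 4 (0.0950). Of its merged exon bases 68.2% are shared with another annotated gene on the same strand, where reads cannot be given to a single gene.

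MRPL54, a protein of the large subunit with no bacterial homologue, had 42.9, 42.3 and 39.2 CPM in siFTO libraries, against 53.9, 89.2 and 54.98 CPM in controls. Here too control 2 stood apart, and the groups did not overlap. The log2 fold change was -0.67 (SE 0.17; adjusted p = 0.0137).

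MRPL1 belongs to the stalk by which the used tRNA leaves the ribosome. It had 32.3, 30.9 and 32.4 CPM in siFTO libraries, against 47.8, 52.3 and 45.9 CPM in controls, with little spread within each group (31.9 ± 0.836 CPM in siFTO and 48.7 ± 3.30 CPM in control, SD, n = 3 each). It fell by 0.61 (SE 0.09; adjusted p = 0.00133).

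MRPS18B is 1 of 3 human relatives of bacterial S18, all of which are in the set. Its levels were 145, 141 and 151 CPM in siFTO libraries, against 200.5, 237 and 211 CPM in controls, and it fell by 0.57 (SE 0.09; adjusted p = 0.00157). MRPS18A had 57.4, 58.6 and 62.2 CPM in siFTO libraries, against 66.4, 65.3 and 64.9 CPM in controls (log2 fold change -0.14, SE 0.08; adjusted p = 0.194). MRPS18C had 11.5, 12.2 and 11.6 CPM, against 12.3, 12.5 and 13.3 CPM in controls (-0.11, SE 0.12; adjusted p = 0.485). The siFTO libraries were below the controls for all 3 genes, and whether the 3 changes differ from each other was not tested. MRPS18A shares 47.0% of its exon bases with RSPH9 on the opposite strand, and MRPS18C 40.2% with ABRAXAS1.

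MRPS26, a small-subunit protein found only in mitochondria, had 54.2, 65.2 and 70.3 CPM in siFTO libraries, against 82.5, 104 and 93.1 CPM in controls. It fell by 0.56 (SE 0.12; adjusted p = 0.00541), and the groups did not overlap. In the GENCODE 29 annotation (GRCh38) the 6 genes lie on 6 chromosomes: MRPL23 at chr11:1947278-1984522, MRPL12 at chr17:81703357-81707526, MRPL54 at chr19:3762664-3768575, MRPL1 at chr4:77862520-77952790, MRPS18B at chr6:30617709-30626395 and MRPS26 at chr20:3045945-3048254.

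**Figure D2:**
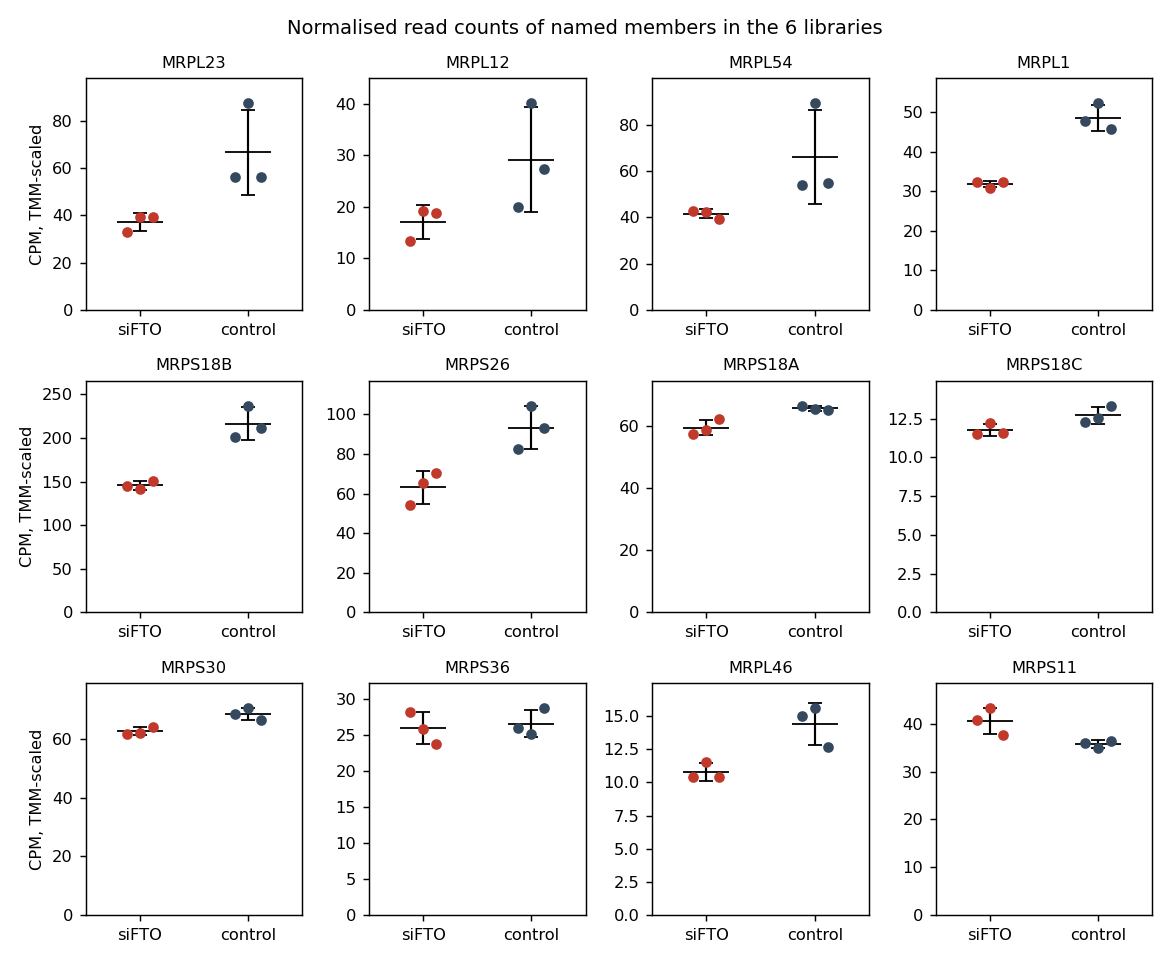
Normalised read counts (CPM, TMM-scaled) of 12 members; points are libraries, siFTO in red and control in dark blue, with the mean and SD (n = 3) in black. The first 6 panels are the largest falls, with control 2 above the other controls in MRPL23, MRPL12 and MRPL54 and tight groups in MRPL1.

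Other large-subunit genes are given by the place of their protein, a grouping made after the values were seen that describes single genes and no theme. Of proteins around the exit tunnel, MRPL4 (-0.40), MRPL22 (-0.35), MRPL23 (-0.84), MRPL24 (-0.39) and MRPL45 (-0.31), the last a contact to the inner membrane, fell, while MRPL17 (-0.09), MRPL39 (-0.14), MRPL44 (-0.03) and MRPL47 (-0.01) did not pass the test. Of proteins in the mobile stalks, which handle factors and leaving tRNA, MRPL1 (-0.61), MRPL10 (-0.33), MRPL11 (-0.48) and MRPL12 (-0.77) fell. The lists by place are not complete. MRPL53, with a value above 0, and MRPL27 are not listed, and neither passed the test. Near the catalytic centre MRPL2 (-0.56) and MRPL16 (-0.44) fell, while MRPL3 had 206, 187 and 204 CPM in siFTO libraries, against 190, 176 and 209 CPM in controls (0.06, adjusted p = 0.657). MRPL58, a peptidyl-tRNA hydrolase built into the subunit, fell by 0.44 (adjusted p = 0.00677).

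In the small subunit 9 genes fell: MRPS18B, MRPS26, MRPS33 (-0.55), MRPS15 (-0.48), MRPS34 (-0.47), MRPS14 (-0.40), MRPS5 (-0.38), MRPS27 (-0.33) and MRPS16 (-0.32). MRPS27 is a pentatricopeptide repeat protein, a family that binds RNA. MRPS12, at the site where codons are read, had 50.7, 66.1 and 66.6 CPM in siFTO libraries, against 52.7, 77.7 and 64.2 CPM in controls (-0.09, adjusted p = 0.665), with overlapping groups.

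Per kilobase of transcript the most abundant members were MRPS34 (177 CPM per kb in siFTO, 245 in control), MRPL28 (156 and 226) and MRPS15 (130 and 182), and all 3 fell without offsets for length and GC content. MRPS34 had 169.5, 177 and 198 CPM in siFTO libraries, against 218, 280 and 256 CPM in controls (-0.47, SE 0.11; adjusted p = 0.00804). MRPL28 had 152, 173 and 191 CPM in siFTO libraries, against 224, 290.3 and 229 CPM in controls (-0.53, SE 0.12; adjusted p = 0.00797). MRPS15 had 136, 127 and 131 CPM in siFTO libraries, against 170.0, 208 and 169 CPM in controls (-0.48, SE 0.10; adjusted p = 0.00493). For none of the 3 did a siFTO library reach a control. The call of MRPS34 was lost without control 2 (adjusted p = 0.0501) and without control 3 (0.0564). With the length and GC offsets described below, MRPS34 stood at -0.09 (adjusted p = 0.503) and MRPL28 at -0.20 (adjusted p = 0.133), and neither was called, while MRPS15 fell by 0.31 (adjusted p = 0.0166). With GC offsets alone MRPS34 stood at -0.27 (adjusted p = 0.0574) and with length offsets alone at -0.26 (adjusted p = 0.0789).

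The least abundant members tested were MRPL38, MRPL53 and MRPS17, at 1.18, 2.67 and 7.11 CPM per kb in control. MRPL38 was counted 24, 26 and 23 times in siFTO libraries, against 16, 44 and 43 times in controls (-0.44, adjusted p = 0.239). MRPL53 was counted 61, 49 and 63 times in siFTO libraries, against 31, 49 and 61 times in controls, and its log2 fold change of 0.35 (SE 0.22; adjusted p = 0.231), though the highest of all members, came with overlapping groups. MRPS17 was counted 137, 146 and 179 times in siFTO libraries, against 147, 211 and 223 times in controls (-0.30, adjusted p = 0.173), and without siFTO 6 it fell by 0.49 (adjusted p = 0.0195). MRPL38, MRPL53 and MRPS17 share 41.1%, 45.2% and 27.0% of their exon bases with other genes.

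MRPS24 was not tested for low counts. It had 16, 36 and 4 counts in siFTO 4, 5 and 6, against 5, 1 and 1 in controls, and 23.2% of its exon bases belong also to a read-through transcript with URGCP. The 2 high values are in siFTO 4 and 5. Reads of the 78 annotated MRP pseudogenes were few, at 25 to 40 in siFTO libraries and 19 to 28 in controls, against 71949 or more for the members.

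Of the members above 0, MRPL18 had 121.0, 121.4 and 123.5 CPM in siFTO libraries, against 104, 103 and 111 CPM in controls (0.20, SE 0.08; adjusted p = 0.0637). MRPL50 had 56.2, 53.2 and 55.4 CPM in siFTO libraries, against 46.1, 43.5 and 51.2 CPM in controls (0.23, SE 0.09; adjusted p = 0.0790). MRPS6 had 47.2, 42.5 and 46.1 CPM in siFTO libraries, against 34.1, 44.5 and 33.8 CPM in controls (0.27, SE 0.12; adjusted p = 0.0981). MRPL18, MRPL50 and MRPS11 were the only members with all siFTO libraries above all controls, and none passed the threshold. They were chosen after their values were seen.

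**Figure D3:**
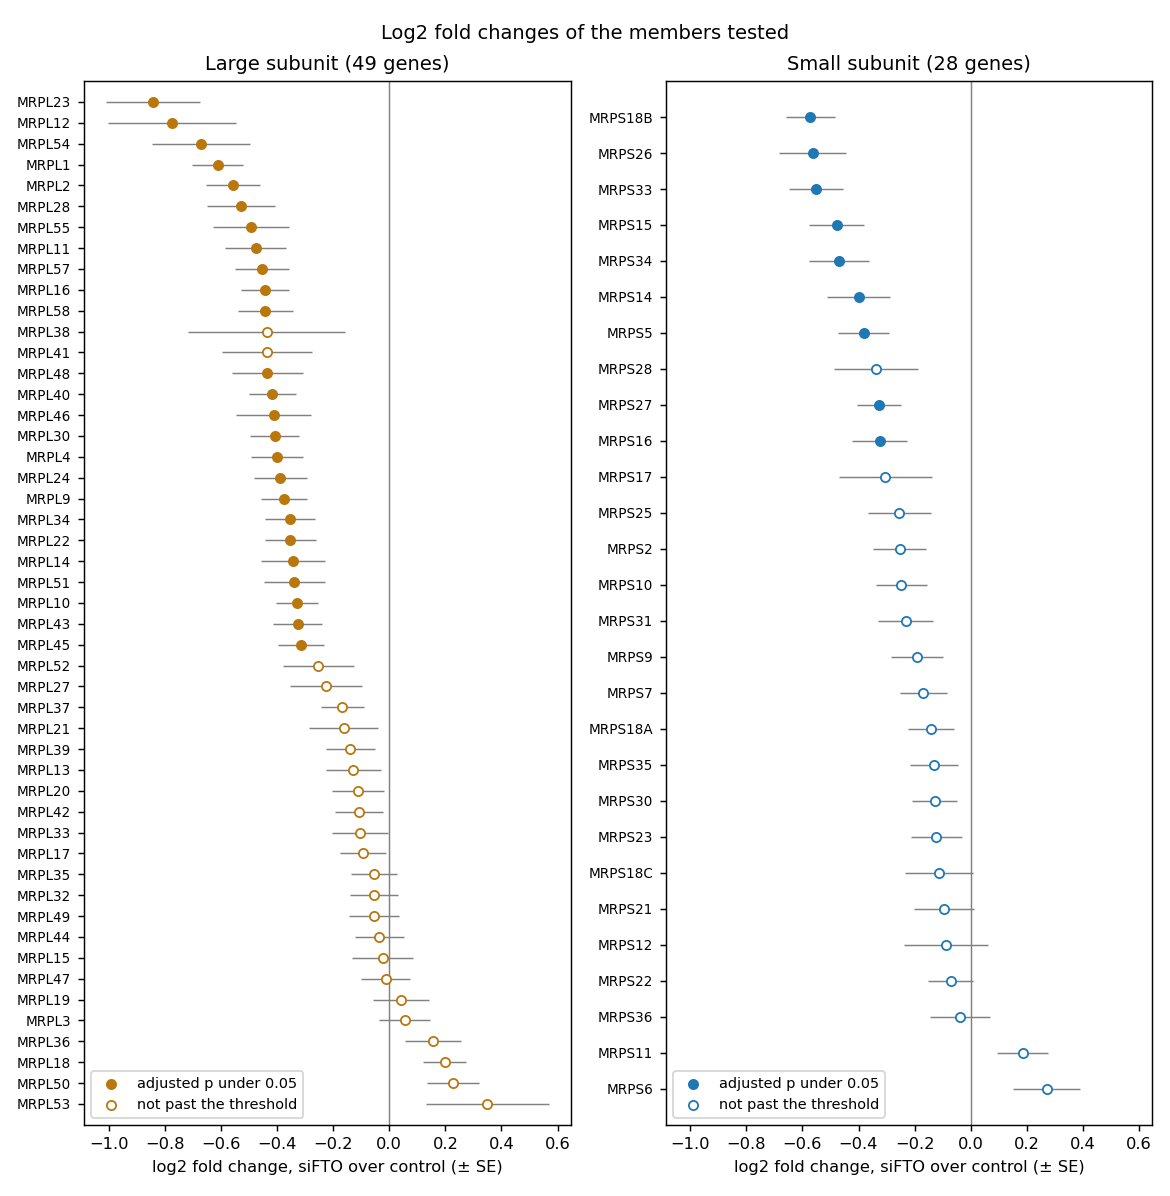
Log2 fold change (siFTO over control, edgeR) with its SE for the 49 large-subunit and 28 small-subunit genes tested, sorted; filled points passed an adjusted p of 0.05. All 34 filled points are below 0, from -0.84 for MRPL23 to -0.31 for MRPL45.

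Large and small subunit were then compared. Of the large-subunit genes 25 of 49 fell (51.0%) and their median log2 fold change was -0.33. Of the small-subunit genes 9 of 28 fell (32.1%), with a median of -0.24. Non-overlap of the groups gave the other order: every siFTO library was below every control for 55.1% of large-subunit and 71.4% of small-subunit genes. By library, the large-subunit median minus the small-subunit median was -0.08, -0.04 and -0.12 in siFTO 4, 5 and 6, against -0.005, 0.005 and -0.01 in controls. The summed CPM of the large subunit was 1.82 to 1.88 times that of the small subunit in siFTO libraries and 1.78 to 1.82 times in controls, so that the ranges met. Without siFTO 4, 16 large-subunit genes fell, and without control 2 the medians were -0.20 and -0.15. Genes are not replicates, and no test over the list was made.

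MRPS30 and MRPS18A are named for the small subunit but sit in the large subunit of the human mitoribosome, and MRPS36 is a part of the 2-oxoglutarate dehydrogenase complex. MRPS30 had 61.7, 62.2 and 64.1 CPM in siFTO libraries, against 68.6, 70.5 and 66.4 CPM in controls (-0.13, SE 0.08; adjusted p = 0.231). MRPS36 had 28.2, 25.8 and 23.7 CPM in siFTO libraries, against 25.9, 25.05 and 28.7 CPM in controls (-0.04, SE 0.11; adjusted p = 0.802), with full overlap. With these genes placed by structure, 25 of 51 large-subunit genes (median -0.33) and 9 of 25 small-subunit genes (median -0.25) fell.

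Transcript length and GC content differed between the subunits and moved with the fold change. The median transcript was 1162 bases long with 50.8% GC for the large subunit and 1505 bases with 47.0% GC for the small subunit, while over all genes tested it was 2578 bases with 50.3% GC. Over 14887 genes the log2 fold change had a Spearman correlation of 0.40 with length and -0.27 with GC content. These are correlations across genes, which are not independent replicates and share the libraries. Over the 77 members the correlation was 0.12 with length and -0.48 with GC content.

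Such trends were also present among the controls. Over all genes the deviation of control 2 from the control mean had a correlation of -0.40 with length and 0.31 with GC content, whereas controls 1 and 3 had 0.26 and 0.28 with length and -0.27 and -0.14 with GC content. Over the members, the correlation with GC content was -0.56, -0.26 and -0.43 in siFTO 4, 5 and 6, against -0.49, 0.48 and -0.13 in controls 1, 2 and 3. The sign of control 2 was thus opposite to that of the other 5 libraries. The members of 49.1% GC or more (39 genes) had a median log2 fold change of -0.38 and 23 falls, and those below (38 genes) a median of -0.13 and 11 falls. The shares of all genes called in these GC ranges are not given here, and all genes also had lower values at higher GC content. With the length and GC offsets described below, the medians of the members were -0.11 and -0.15.

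In bins of GC content, members lay below other genes throughout. From the lowest to the highest of 5 bins with near-equal numbers of genes, the median of all genes was 0.18, 0.08, 0.01, -0.07 and -0.20, and that of the members was -0.13, -0.16, -0.21, -0.33 and -0.45 (13, 20, 22, 8 and 14 genes). By length the distance was smaller where most members are. In the shortest of 5 bins, at 1337 bases or less, the median was -0.28 for all genes and -0.33 for 41 members. In the next bin, up to 2143 bases, it was -0.13 for all genes and -0.25 for 26 members. The longer bins held 4, 5 and 1 members.

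**Figure D4:**
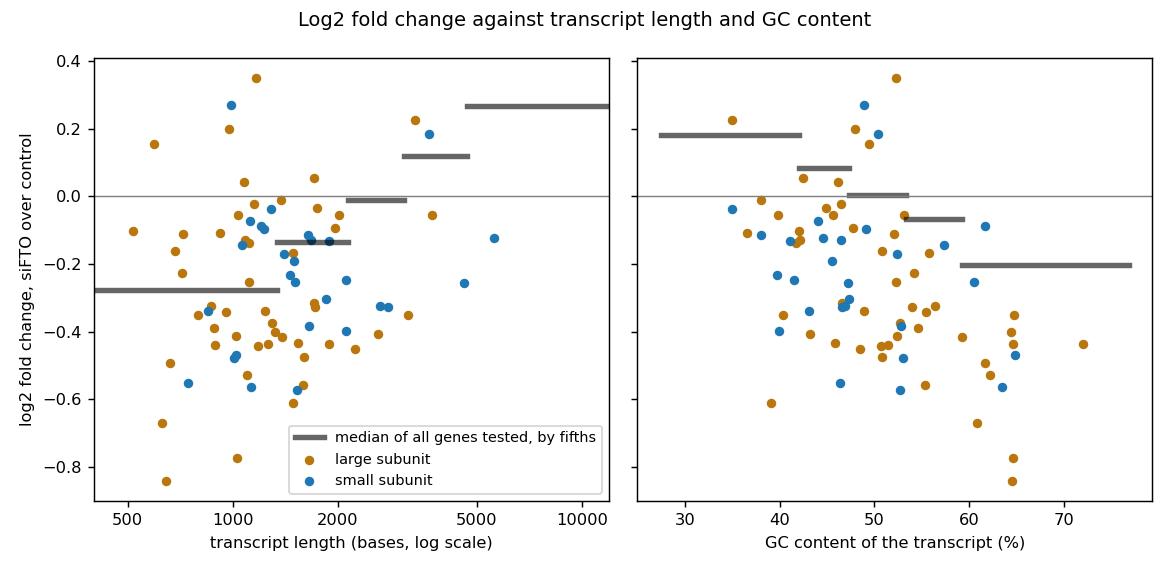
Log2 fold change (siFTO over control) of the members against transcript length in bases (left, log scale) and GC content in percent (right); grey bars are medians of all genes tested in 5 bins, drawn over the range of each bin and cut off at the edges of the length axis. In the shortest bin, members (median -0.33) lie close to all genes (-0.28), while in every bin of GC content they lie lower.

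The counts were refitted with an offset for each gene and library. Offsets came from smooth curves over all genes, against length, GC content or both. The curves were fitted, per library, to each gene's log2 level minus its mean over all libraries. A difference between the groups that goes with length or GC content is therefore removed as well. With GC offsets 40 members fell (51.9%, against 19.7% of all genes) and 0 rose (against 16.2%), with a median of -0.30. With length offsets 20 fell (26%, against 18.6%) and 3 rose (3.90%, against 13.3%), with a median of -0.13. With both, 24 fell (31.2%, against 19.0%) and 3 rose (3.90%, against 13.2%), with a median of -0.13 beside -0.05 over all genes. The median log2 fold change of the members was thus -0.25 without offsets and -0.13 with both, and 20 of the 34 calls were kept. The 3 members that rose with both were MRPL18 (0.35, adjusted p = 0.00970), MRPL36 (0.37, adjusted p = 0.0175) and MRPS6 (0.43, adjusted p = 0.00950).

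The order of the subunit medians depended on the offsets. With length offsets the large subunit stayed lower, at -0.16 against -0.12 for the small subunit. With GC offsets the medians were -0.29 for the large and -0.31 for the small subunit. With both offsets they were -0.10 and -0.18, and 14 of 49 large-subunit genes (28.6%) and 10 of 28 small-subunit genes (35.7%) fell. The large subunit thus no longer had the lower median with GC offsets or with both. Across the members, the correlation of the log2 fold change with length was -0.43 after both offsets and with GC content 0.01.

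Named falls split into those that kept their call with both offsets and those that did not. MRPL1 (-0.58, adjusted p = 0.000979), MRPS18B (-0.50, adjusted p = 0.00227) and MRPL23 (-0.39, adjusted p = 0.0167) were still called. MRPL12 (-0.39, adjusted p = 0.0983), MRPL54 (-0.27, adjusted p = 0.130) and MRPS26 (-0.22, adjusted p = 0.0945) were not, and these 3 have 60.9% to 64.6% GC. MRPL23, still called, has 64.5% GC. MRPL1, with 39.1% GC and 1490 bases, had nearly the same value in both fits. Among the stalk proteins listed above MRPL10 (-0.27) and MRPL11 (-0.42) kept their calls, and around the tunnel MRPL22 (-0.54) and MRPL45 (-0.28) did while MRPL4 (-0.09) and MRPL24 (-0.18) did not.

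**Figure D5:**
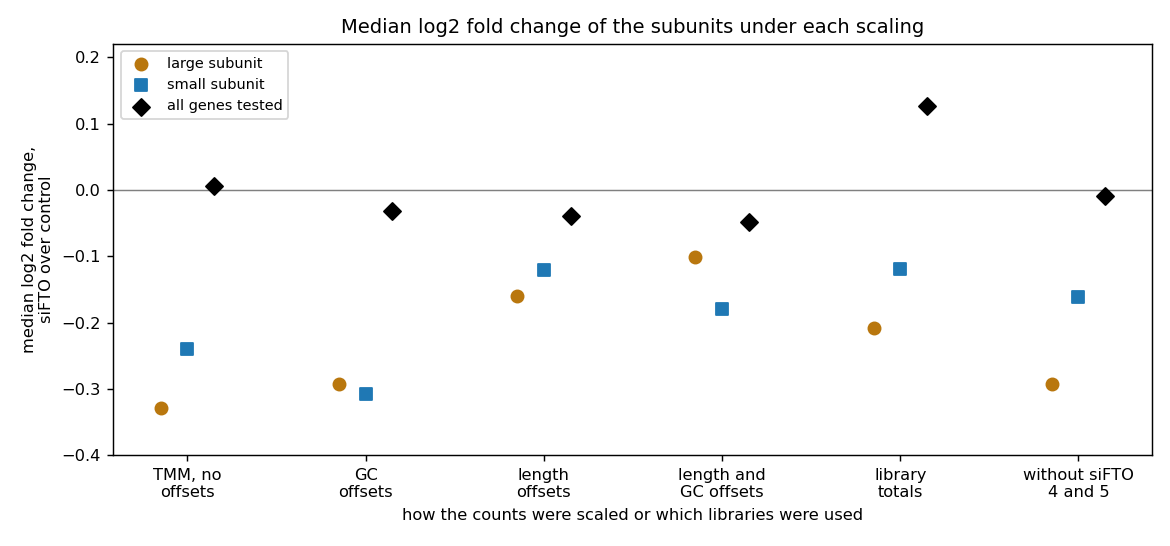
Median log2 fold change (siFTO over control) of the 49 large-subunit genes, the 28 small-subunit genes and all genes tested, for 6 ways of scaling or choosing libraries. Without offsets the large subunit (-0.33) is below the small (-0.24), and with length and GC offsets it is above it (-0.10 and -0.18).

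The members were set beside the proteins of the cytosolic ribosome and the nuclear subunits of oxidative phosphorylation. Of 85 cytosolic ribosomal protein genes tested, 78 fell (91.8%) and 1 rose, with a median of -0.69, and with both offsets 73 fell, with a median of -0.50. Of 82 oxidative phosphorylation genes, 52 fell (63.4%) and 0 rose, with a median of -0.36, and with both offsets 31 fell and 1 rose, with a median of -0.23. The mitoribosomal set thus had the median closest to 0 of the 3 sets in both fits, a difference that was not tested. Median transcript lengths were 1286 bases for the members, 897 bases for oxidative phosphorylation and 802 bases for cytosolic ribosomal proteins.

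The machinery that the mitoribosome works with was read from 6 lists. Of 89 genes tested, 22 fell (24.7%, against 17.9% of all genes) and 7 rose (7.87%, against 19.5%), with a median of -0.11. With library totals 9 fell (10.1%, against 11.9% of all genes) and 14 rose (15.7%, against 27.3%). The list of 6 genes drawn up for ribosomal proteins under other symbols included 4 falls: NDUFAB1 (-0.46), AURKAIP1 (-0.39), CHCHD1 (-0.37) and DAP3 (-0.22, a GTP-binding protein of the small subunit). NDUFAB1, though in this list, is the mitochondrial acyl carrier protein. It belongs to complex I and is not a protein of the finished mitoribosome. With both offsets none of these 4 was called, and PTCD3, a pentatricopeptide repeat protein of the small subunit, fell by 0.51.

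Of 27 genes for assembly and rRNA modification, 11 fell (40.7%) and 1 rose (3.70%), with a median of -0.21. The largest falls were MRM1 (-0.68, adjusted p = 0.00344), an rRNA methyltransferase, RBFA (-0.64, adjusted p = 0.00169), a binding factor of the small subunit, and RPUSD3 (-0.52), a pseudouridine synthase-like protein. MRM1 had 10.5, 10.1 and 9.11 CPM in siFTO libraries, against 14.6, 15.7 and 17.2 CPM in controls. RBFA had 21.5, 20.5 and 23.8 CPM in siFTO libraries, against 31.9, 35.4 and 34.8 CPM in controls. The 2 groups did not overlap for either gene. FASTKD2, which binds mitochondrial RNA, rose by 0.39. With both offsets the median was -0.24, 10 genes fell, FASTKD2 was no longer called (0.27, adjusted p = 0.0530), and MPV17L2 rose by 0.53.

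Of 16 translation factors and related genes 3 fell (18.8%) and 2 rose (12.5%), shares near or below those of all genes (17.9% and 19.5%). The related genes include LRPPRC, SLIRP and OXA1L, which are not translation factors in the strict sense. TUFM, the elongation factor that brings tRNA, had 493, 539 and 551 CPM in siFTO libraries, against 676, 763 and 718 CPM in controls (-0.45, adjusted p = 0.00383). Its exchange factor TSFM (-0.40) and the initiation factor MTIF3 (-0.46) also fell. GFM1, the elongation factor that moves the ribosome along, had 84.9, 81.4 and 94.1 CPM in siFTO libraries, against 61.3, 51.2 and 63.3 CPM in controls (0.57, adjusted p = 0.00304), and the release factor MTRF1L rose by 0.55. These 5 calls held with both offsets. In that fit, however, 6 of the 16 fell (37.5%, against 19.0% of all genes) and 3 rose (18.8%, against 13.2%), with a median of -0.21. The falls added were LRPPRC (-0.39), MRRF (-0.31) and MTFMT (-0.31), and the rise added was SLIRP (0.27).

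Of 20 genes for charging mitochondrial tRNA, 4 fell (20%, near the 17.9% of all genes), with FARS2 (-0.45), GATB (-0.37) and WARS2 (-0.30) the largest changes among those called, and 1 rose (5%, against 19.5%), MARS2 by 0.44. Of 12 for mitochondrial transcription and RNA processing, 0 fell and 2 rose (16.7%, below the 19.5% of all genes), PNPT1 (0.39), a ribonuclease, and TWNK (0.36), the replicative helicase. The rises of MARS2, PNPT1 and TWNK were not called with both offsets. In that fit 5 of the 20 genes for charging tRNA fell (25%, against 19.0% of all genes) and 0 rose (against 13.2%). Of the 12 for transcription and RNA processing, 0 fell and 0 rose. TWNK and MRPL43 share exon bases on opposite strands, and MRPL43 fell by 0.33. Of 8 transcription factors and coactivators of mitochondrial genes, 0 fell and 1 rose (12.5%, below the 19.5% of all genes), PPARGC1B, with 14.4, 15.4 and 13.1 CPM in siFTO libraries, against 8.56, 6.97 and 9.09 CPM in controls (0.80, adjusted p = 0.00315). In the fit with both offsets 2 of the 8 fell (25%, against 19.0% of all genes). These were GABPB1 (-0.45, adjusted p = 0.00321, edgeR) and GABPA (-0.27, adjusted p = 0.0324). PPARGC1B still rose there (0.41, adjusted p = 0.0307). Without offsets, at an unadjusted p under 0.05, 1 gene of the transcription and RNA processing list and 0 of the factors and coactivators were lower in edgeR. DESeq2 and limma voom, also without offsets, called 0 falls in both lists.

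Promoters of many mitochondrial genes hold sites for NRF1, for ETS factors such as GABP, and for YY1. The 250 bases before the start were available for 69 of the 78 members (RefSeq, GRCh38.p14), and were searched on both strands for GCGCATGC (NRF1), CCGGAAGT (ETS and GABP), AAGATGGCG (YY1) and TGATGCAA (ATF4 composite). The E-box CACGTG was searched as well. So was the TATA box, TATAAA. NRF1, ETS and YY1 letters were found in 6, 9 and 3 members (8.70%, 13.0% and 4.35%), against 2.81%, 3.64% and 0.641% of 27305 promoters. At least 1 of the 3 was in 16 members (23.2%), against 6.75% of all promoters. The E-box was in 6 members (8.70%, against 6.49%), the TATA box in 2 (2.90%, against 11.1%) and TGATGCAA in 0 (against 0.820%). At least 1 of the 3 was in 4 of the 31 that fell (12.9%) and in 12 of 37 that did not pass the test (32.4%). Some of the windows lie wholly in annotated exons. Of the members with NRF1, ETS or YY1 letters, this holds for MRPL32, MRPL38, MRPL51 and MRPL53, where all 250 bases are exonic. The window of MRPL1, without a match, begins after the annotated start of its own gene. How far the windows of all promoters lie in exons is not given here, so the shares were not corrected for this. They are a description of these letters in this window.

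To show the windows behind those counts, stretches outside annotated exons are given for 3 genes that fell (MRPL54, MRPL28, MRPL22) and 3 that did not pass (MRPL52, MRPL17, MRPL3). They were chosen for holding few exon bases and different motifs, run 5′ to 3′ on the strand of the gene, and have the matches in capitals. MRPL54 has a TATA box match far from its start, MRPL28 none of the 6 motifs, MRPL22 an E-box and an NRF1 match, MRPL52 an NRF1 match and 2 YY1 matches, MRPL17 overlapping NRF1 matches on both strands, and MRPL3 an ETS match. In GRCh38.p14 the stretches are chr19:3762432-3762663 (+) for MRPL54, chr16:370539-370772 (-) for MRPL28, chr5:154940823-154941069 (+) for MRPL22, chr14:22829637-22829882 (+) for MRPL52, chr11:6683402-6683590 (-) for MRPL17, chr3:131502984-131503221 (-) for MRPL3.
MRPL54: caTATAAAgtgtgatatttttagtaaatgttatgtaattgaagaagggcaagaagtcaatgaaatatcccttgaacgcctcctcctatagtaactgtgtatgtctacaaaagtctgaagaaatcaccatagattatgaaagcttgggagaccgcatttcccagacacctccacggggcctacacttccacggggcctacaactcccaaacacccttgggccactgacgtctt
MRPL28: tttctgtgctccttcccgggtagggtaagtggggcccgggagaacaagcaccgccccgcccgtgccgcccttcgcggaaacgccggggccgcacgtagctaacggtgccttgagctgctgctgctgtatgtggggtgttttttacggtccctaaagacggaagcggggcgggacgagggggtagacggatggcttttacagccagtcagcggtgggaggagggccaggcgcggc
MRPL22: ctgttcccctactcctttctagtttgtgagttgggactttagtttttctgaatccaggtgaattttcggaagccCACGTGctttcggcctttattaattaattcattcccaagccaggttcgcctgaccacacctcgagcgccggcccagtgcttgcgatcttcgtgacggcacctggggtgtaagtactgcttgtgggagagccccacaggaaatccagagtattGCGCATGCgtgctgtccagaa
MRPL52: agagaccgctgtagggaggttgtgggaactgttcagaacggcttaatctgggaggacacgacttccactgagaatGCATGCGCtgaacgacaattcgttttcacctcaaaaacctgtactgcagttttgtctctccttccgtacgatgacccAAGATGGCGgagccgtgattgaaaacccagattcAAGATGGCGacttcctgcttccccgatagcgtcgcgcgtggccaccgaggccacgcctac
MRPL17: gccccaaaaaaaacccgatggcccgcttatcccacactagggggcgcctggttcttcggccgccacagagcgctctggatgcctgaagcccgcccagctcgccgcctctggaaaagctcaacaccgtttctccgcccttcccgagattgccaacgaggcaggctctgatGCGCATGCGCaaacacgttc
MRPL3: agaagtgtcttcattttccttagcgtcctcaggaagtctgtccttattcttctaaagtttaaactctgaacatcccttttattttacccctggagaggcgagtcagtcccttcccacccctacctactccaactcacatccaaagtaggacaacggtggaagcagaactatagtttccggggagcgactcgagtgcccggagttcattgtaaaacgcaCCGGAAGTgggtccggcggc
MRPL22, with an NRF1 match 24 bases before its start, had 55.2, 52.8 and 56.5 CPM in siFTO libraries, against 68.6, 76.3 and 65.1 CPM in controls, and fell by 0.35 (adjusted p = 0.0135). MRPL17, also with NRF1 matches, had 116, 124 and 118 CPM in siFTO libraries, against 119.9, 135 and 127 CPM in controls (-0.09, adjusted p = 0.383). MRPL52 had 64.9, 76.0 and 66.1 CPM in siFTO libraries, against 69.5, 98.1 and 78.8 CPM in controls (-0.25, adjusted p = 0.139). NRF1 letters thus stood before genes that fell and genes that did not pass. YY1 letters were in 0 of the 31 that fell and 3 of the 37 that did not pass. The TATA box was in 2 of the 31 and 0 of the 37.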

How the data were processed

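RNA of 253J cells was sequenced in 3 siFTO and 3 control libraries, and the authors deposited a table of raw read counts per gene for each library. Per the labels and the submitters' processing notes, reads were aligned with TopHat2 2.0.11 to hg19 (GRCh37) and counted with HTSeq; the strand setting was not given in the sources used here. Symbols came from a separate list of gene names matched by gene ID, and 56321 of 60483 IDs had one. Gene types, positions, lengths and GC content came from GENCODE 29 (GRCh38) by gene ID. There 56753 of the IDs were found, and 99.5% of the 14965 genes tested had length and GC content. Coordinates are therefore those of GRCh38, not of the build the counts were made on. There were 0 columns of other samples.

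Counts were tested with edgeR 4.0.16 in R 4.3.3 (quasi-likelihood, two-sided, TMM factors, filterByExpr with a minimum count of 10 and total of 15), with Benjamini-Hochberg adjustment over all genes tested and a threshold of 0.05. The same tool gave all adjusted p-values of the report. The fit was tested on simulated data. Offsets were natural splines with 5 degrees of freedom in each library. DESeq2 1.42.0, limma 3.58.1, other scalings, filters, thresholds and left-out libraries were tried as alternatives. Deviations by library used a pseudocount of 0.5 CPM. Each library's total count limits precision for genes of few reads.

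The members and lists were chosen with earlier results of these data known. Members named with values were the 6 largest falls and up to 6 largest rises past the threshold, the 3 most and 3 least abundant per length, those not tested, and MRPS18A, MRPS18B, MRPS18C, MRPS30 and MRPS36, and in each pathway list up to 3 in each direction. Other named members were chosen after their values were seen. Promoter windows came from RefSeq (GRCh38.p14), matched by symbol.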

Additional observations from a re-analysis of the deposited data

How the results depend on the processing

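No paired analysis was possible because the groups share no replicate number (1 to 3 in control, 4 to 6 in siFTO). Size factors, TMM without ribosomal proteins, the stricter count filter, DESeq2 and limma voom gave 33 to 35 falls among the members. Upper-quartile scaling gave 37, and a median of -0.13 for the other mitochondrial translation genes. With library totals 22 members fell and 5 rose (median -0.13), of the large subunit 16 and 3 (-0.21), of the small subunit 2 rose (-0.12), and of the other translation genes 9 fell and 14 rose (0.015), while FTO stood at -0.46 (adjusted p = 0.0576, edgeR). Of all genes tested, 11.9% fell and 27.3% rose with library totals. Without a filter 1 member rose, MRPS24 of the small subunit. With length offsets 20 members fell and 3 rose (median -0.13), of the large subunit 10 and 2 (-0.16), of the small subunit 1 rose (-0.12). The median of the other translation genes was then -0.14, and large minus small -0.039. With GC offsets these were -0.16 and 0.015. With both, 3 members rose (median -0.13), of the large subunit 14 fell and 2 rose (-0.10), of the small subunit 1 rose, and the values were -0.17 and 0.079. Offsets from merged exon length and GC content, chosen after seeing the data, gave 2 rises, 16 falls and 2 rises in the large subunit (-0.20), and values of -0.14 and 0.028. Without siFTO 4 and 5, 3 members fell (2 large, 1 small), the small-subunit median was -0.16, the other translation genes had 2 falls and 2 rises (-0.081), and large minus small was -0.13. Fewer libraries were tested there. At an adjusted p under 0.01, 20 members fell (13 large), and of the other translation genes 6 fell and 3 rose. At 0.1, 3 members rose (2 large, 1 small), 14 small-subunit genes fell and 13 other translation genes rose. Leaving out each library in turn gave 24 to 39 falls and 0 to 1 rises (median -0.33 to -0.20), 16 to 26 falls in the large subunit (-0.37 to -0.20), 6 to 13 falls and 0 to 1 rises in the small subunit (-0.28 to -0.15), large minus small from -0.14 to -0.057, 7 to 23 falls and 3 to 7 rises of the other translation genes (-0.12 to -0.080), and FTO from -0.74 to -0.47. When a library was left out in turn, the median over all genes was 0.005 to 0.040. The shares of all genes called in those fits, and at 0.01 and 0.1, are not given here. The counts of falls and rises there therefore cannot be set against a background. For the changes between settings the cause was not tested.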

Other observations

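MRPL46 and MRPS11 are read in opposite directions from starts 319 bases apart on chromosome 15 (RefSeq, GRCh38.p14). MRPL46 had 10.4, 11.6 and 10.4 CPM in siFTO libraries, against 14.98, 15.6 and 12.7 CPM in controls, and fell by 0.41 (adjusted p = 0.0346, edgeR), a call lost in 10 of the alternatives: with library totals, without the count filter, in DESeq2, with length offsets, with length and GC offsets (-0.26, adjusted p = 0.129), without control 1, without control 2, without siFTO 4, without siFTO 5, and without siFTO 4 and 5 together. MRPS11 had 40.9, 43.3 and 37.8 CPM in siFTO libraries, against 35.9, 35.0 and 36.4 CPM in controls (0.18, adjusted p = 0.133, edgeR). The ratio of MRPS11 to MRPL46 was 3.93, 3.74 and 3.62 in siFTO libraries, against 2.40, 2.24 and 2.88 in controls, without overlap. The pair was chosen after its values were seen, so the ratio is a description.

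Members counted as having a bacterial homologue and the other members had similar shares of falls. Of 44 counted with a homologue 20 fell (45.5%, median -0.25), and of 32 others 14 fell (43.8%, median -0.32), against 17.9% of all genes tested. The 32 are mostly proteins found only in mitochondria, but they include MRPS18A and MRPS18B, which are relatives of bacterial S18. This division was drawn after the values were seen and was not tested.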
